A study of Xenopus laevis with 37 samples.

Results

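The comparison described here is that of hindgut pieces from Xenopus laevis embryos carrying the transgene hsp:Dkk1GFP, with and without a heat pulse. It rests on 4 of the 37 RNA-seq libraries of the series, namely the 2 labelled HG_HSdkk1 and the 2 labelled HG_noHS, which were chosen by the names of their columns in the deposited table. All 4 came from explants of hindgut (HG) collected at Nieuwkoop and Faber stage NF20. The heated embryos had 30 min at 37C to switch on the transgene and were then kept at 13C, while the controls had no heat. The genotype field of all 4 samples reads wild type, and the transgene is named only in the treatment protocol. A heat shock promoter is not restricted to a tissue, so the transgene is not a hindgut-specific tool. No heated group without the transgene is among the libraries, and heat and Dkk1 therefore cannot be told apart. The column numbers of the hindgut libraries, 12 and 23 without heat and 14 and 25 with heat, differ from the replicate numbers in the sample titles and are used here only as names. The foregut (FG) groups FG_noHS and FG_HSdkk1, with 2 libraries each, had the same treatments. Further explants came from embryos cultured from NF12 to NF20 in DMSO or in 60 µM BIO, an inhibitor of the kinase GSK3. With 3 libraries per group, they supplied sets of genes that differed by region or with BIO.

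Dkk1 is a secreted antagonist that binds the Wnt co-receptors Lrp5 and Lrp6 and so blocks signalling through beta-catenin. In vertebrate embryos Wnt signalling is high at the posterior end, where it maintains the caudal homeobox genes cdx1, cdx2 and cdx4, the posterior Hox genes and the presomitic mesoderm. In Xenopus the foregut territory, which gives rise to liver, pancreas and lungs, expresses hhex and forms where Wnt activity is kept low. X. laevis is allotetraploid, and the copies of a gene from its 2 subgenomes carry the suffixes .L and .S.

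Expression was deposited as transcript abundances (TPM), which sum to the same total in each library, are scaled for transcript length and keep no read depth. The 4 hindgut libraries had 19943 to 20594 features at 1 TPM or more. Libraries 23 and 25 stood apart from 12 and 14. Over all features tested, the correlation of log2(TPM + 1) was 0.974 between 12 and 14 and 0.979 between 23 and 25. Within the groups it was lower, at 0.959 for the unheated and 0.958 for the heated libraries. The main fit does not pair the libraries, and the labels state no pairing. The 3 highest features of library 23 were the gene models Xelaev18029838m.g and Xelaev18000045m.g and smad4.1.S. These 3 took 9.46% and 10.8% of the TPM in libraries 23 and 25 but 0.686% and 0.756% in 12 and 14. Since 1 such library lies in each group, the difference does not follow the heat treatment, but it widens the spread within both groups. The hindgut marker cdx2.S was at 251 and 173 TPM in the unheated hindgut against 35.4 and 10.2 TPM in the unheated foregut.

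The endogenous dkk1 rows gave no check of the labels. Dkk1.L measured 6.17 and 13.4 TPM without heat and 8.10 and 7.05 TPM with heat, and dkk1.S measured 6.78 and 7.94 TPM without heat and 7.09 and 5.32 TPM with heat. The groups overlapped for both copies, with log2 differences of -0.25 (SE 0.53) and -0.22 (SE 0.56). The unheated controls lay above vehicle hindgut explants, where dkk1.L was at 0.29, 0.2 and 1.56 TPM and dkk1.S at 0.57, 0.2 and 0.22 TPM. The reason for this difference in baseline was not tested. The labels do not say which Dkk1 sequence the transgene holds, so whether its reads would fall on these rows is unknown. The heated libraries are accordingly referred to by their label.

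Across the 28863 features with at least 1 TPM in 2 or more libraries, 2 genes rose in the libraries labelled HG_HSdkk1 and none fell, by limma at a Benjamini-Hochberg adjusted p under 0.05. That is 0.00693% of the features tested. An unadjusted p under 0.05 was reached by 408 features (1.41%) in the higher and 268 (0.929%) in the lower direction, together 2.34% and fewer than the 1443 that this threshold gives with no difference at all. With 2 libraries per group an exact permutation test cannot go below p = 0.333. The count was 5 without HG_noHS library 12, 0 without HG_noHS library 23, 2 without HG_HSdkk1 library 14 and 15 without HG_HSdkk1 library 25. Genes other than the 2 called are therefore given as values. Features whose groups did not overlap made up 12.3% of those tested in the higher and 10.1% in the lower direction. These percentages are the background for the counts of separated genes that follow.

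The first of the 2 called genes was spib.L, which encodes an Ets-family transcription factor known in Xenopus for marking the earliest myeloid precursors. It measured 0.28 and 0.48 TPM in the unheated hindgut and 38.4 and 7.96 TPM in the heated hindgut. Both heated libraries lay far above both controls, although they differed from each other severalfold. The log2 difference on the log2(TPM + 1) scale was 3.77 (SE 0.52, limma adjusted p = 0.00268), and it lost significance without HG_HSdkk1 library 14 (adjusted p = 0.211) and without HG_noHS library 23 (adjusted p = 0.0737). In a limma fit to the 2 hindgut groups alone or to the 8 heat shock libraries the adjusted p was 1.00 and 0.744. Its homeolog spib.S followed at 0.30 and 0.49 TPM without heat against 10.9 and 3.04 TPM with heat, a log2 difference of 2.32 (SE 0.42, limma adjusted p = 0.0652). The second called gene, LOC100489362.L, has no annotated function in the sources used here. It measured 0.25 and 0.38 TPM without heat and 3.13 and 6.0 TPM with heat, a log2 difference of 2.03 (SE 0.29, limma adjusted p = 0.00318). This call was lost when HG_noHS library 12, HG_noHS library 23 or HG_HSdkk1 library 25 was left out (adjusted p = 0.0503, 0.0737 and 0.0716). The adjusted p was 1.00 in a limma fit to the 2 hindgut groups alone, 0.615 with the 8 heat shock libraries alone and 1.00 at a pseudocount of 0.1 TPM. Over the alternative settings that gave a value, spib.L was called in 11 of 16 and LOC100489362.L in 7 of 15.

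**Figure D1:**
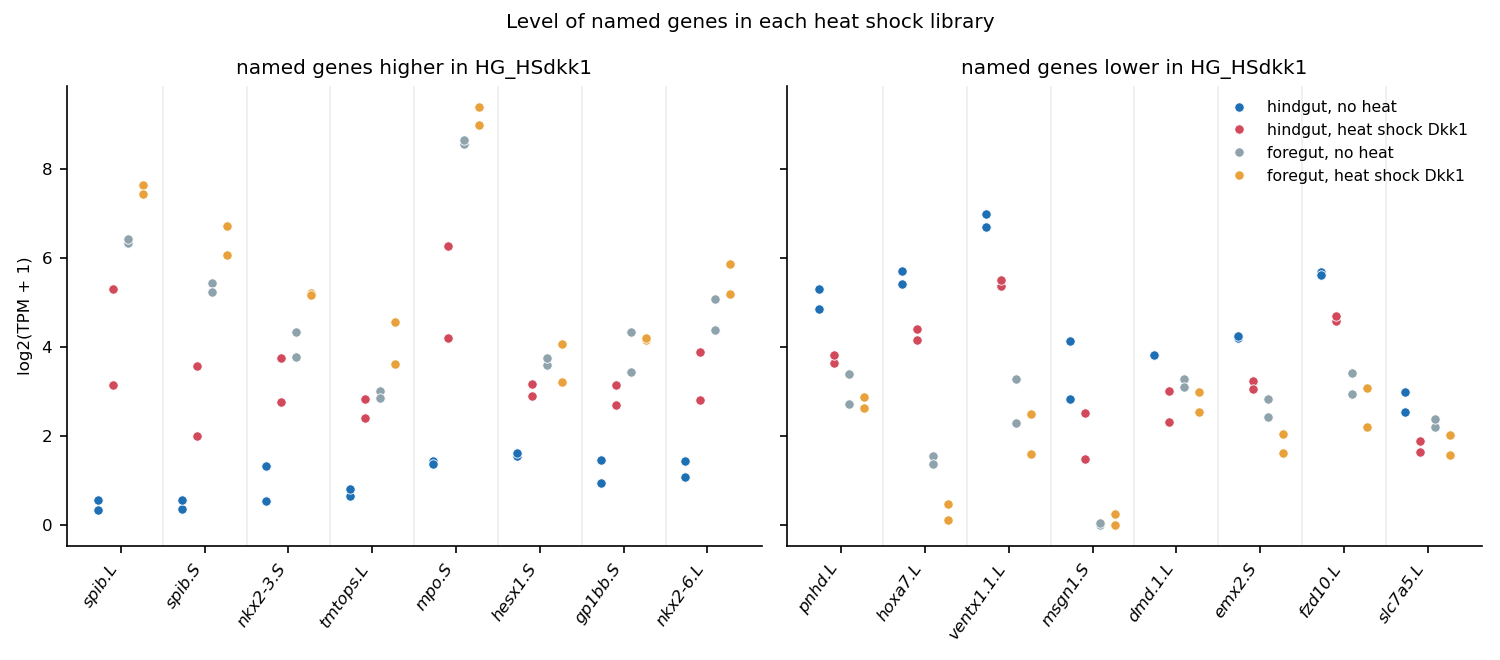
Level of 16 named genes in each heat shock library on the log2(TPM + 1) scale, with hindgut and foregut points side by side for each gene. The genes were chosen because the hindgut groups do not overlap, so that separation is no result. The foregut points show that spib.L, at 0.28 and 0.48 TPM in unheated hindgut, was at 79.6 and 85.1 TPM in unheated foregut.

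Among genes of the Wnt pathway, the list of feedback and direct targets held more features separated lower than higher in the heated hindgut. The ligands leaned the same way, and the antagonists and receptors held similar numbers on both sides. Of 61 features on the list of Wnt feedback and direct targets, 30 lay lower in both heated libraries than in either control and 7 lay higher, with a median log2 difference of -0.38 against 0.01 over all features. None passed the adjusted threshold. With BIO in hindgut the median of this list was -0.05, so its members as a whole did not rise with BIO there. The list also holds cdx1, cdx2, cdx4, msgn1 and tbx6, which recur on the lists of posterior genes below, so these lists are not separate evidence. Axin2, a scaffold protein that feeds back on beta-catenin and a standard readout of the pathway, was at 23.4 and 16.3 TPM without heat and 13.5 and 5.89 TPM with heat for axin2.L, a log2 difference of -1.04 (SE 0.41). The groups did not overlap, but the gap between them was smaller than the distance between the heated libraries themselves. Axin2.S was low throughout, at 2.13 and 2.19 TPM without heat and 1.55 and 1.31 TPM with heat. Notum.S, encoding a secreted enzyme that inactivates Wnt ligands and is itself induced by them, was at 33.8 and 27.6 TPM without heat and 12.8 and 12.42 TPM with heat, with a log2 difference of -1.21 (SE 0.43). Its 2 heated libraries nearly coincided. Sp5l.S, for a Sp-family transcription factor downstream of Wnt, was at 109 and 103 TPM in controls and 32.6 and 75.2 TPM with heat. Sp5l.L was at 87.7 and 83.2 TPM in controls and 27.8 and 62.7 TPM with heat, so library 14 was the lower one for both copies. BIO did not raise sp5l.S in hindgut, at 221, 115 and 140 TPM against 254, 165 and 249 TPM in vehicle, and in foregut these groups overlapped. Axin2.L was higher in each hindgut BIO library than in vehicle, at 50.1, 51.7 and 53.7 TPM against 38.5, 34.7 and 36.8 TPM. Its log2 difference of 0.49 was small beside its SE of 0.33. Sp5 itself was under 2 TPM in all 4 hindgut heat shock libraries, and at that level both copies were separated lower. Sp5.L was at 1.75 and 1.92 TPM without heat and 0.56 and 0.84 TPM with heat, and sp5.S at 0.43 and 0.46 against 0 and 0.08 TPM. With BIO in hindgut the log2 differences were 1.76 (SE 0.38) for sp5.L, 0.98 (SE 0.45) for sp5.S and 1.52 (SE 0.31) for axin2.S.

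The list of dkk1 and other secreted antagonists showed no common direction, with 5 features separated higher and 7 (20.6%) lower among 34 and a median of -0.08. Sfrp2.S, which encodes a Wnt-binding protein of the Frizzled-related family, was at 8.99 and 13.3 TPM without heat and 54.8 and 27.2 TPM with heat, a log2 difference of 1.73 (SE 0.41). Its homeolog sfrp2.L was at 1.15 and 3.21 TPM without heat and 12.9 and 4.64 TPM with heat. On the same list, notum.S and apcdd1.S, a membrane-bound inhibitor of the pathway, lay lower, apcdd1.S at 4.11 and 4.2 TPM against 1.64 and 1.24 TPM. Of 34 Wnt ligand and R-spondin features 2 were separated higher and 8 (23.5%) lower, and 0 had an unadjusted p under 0.05. Their median was -0.12, and it was -0.40 for the 15 at 1 TPM or more in both unheated libraries. On this list wnt5b.S, a ligand of the posterior embryo, was at 35.4 and 36.6 TPM without heat and 17.8 and 26.2 TPM with heat.

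The receptors divided between fzd10 and fzd8, which both encode Frizzled receptors for Wnt. Fzd10.L was at 50.6 and 48.2 TPM without heat and 23.1 and 25.1 TPM with heat, and fzd10.S was at 51.4 and 54.4 TPM without heat and 28.5 and 33.9 TPM with heat. Fzd8.S showed the opposite order, at 2.66 and 4.43 TPM without heat and 12.6 and 8.73 TPM with heat, as did fzd8.L at 1.39 and 4.86 against 8.28 and 6.77 TPM. Over the whole receptor list of 31 features, 5 were separated in each direction. The intracellular components, among them beta-catenin, GSK3, Apc and the Tcf and Tle nuclear factors, had a median of 0.02 over 31 features, with 4 separated higher and 1 lower. Ctnnb1.S, which encodes beta-catenin, was at 238 and 265 TPM without heat and 209 and 245 TPM with heat, and its groups overlapped.

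**Figure D2:**
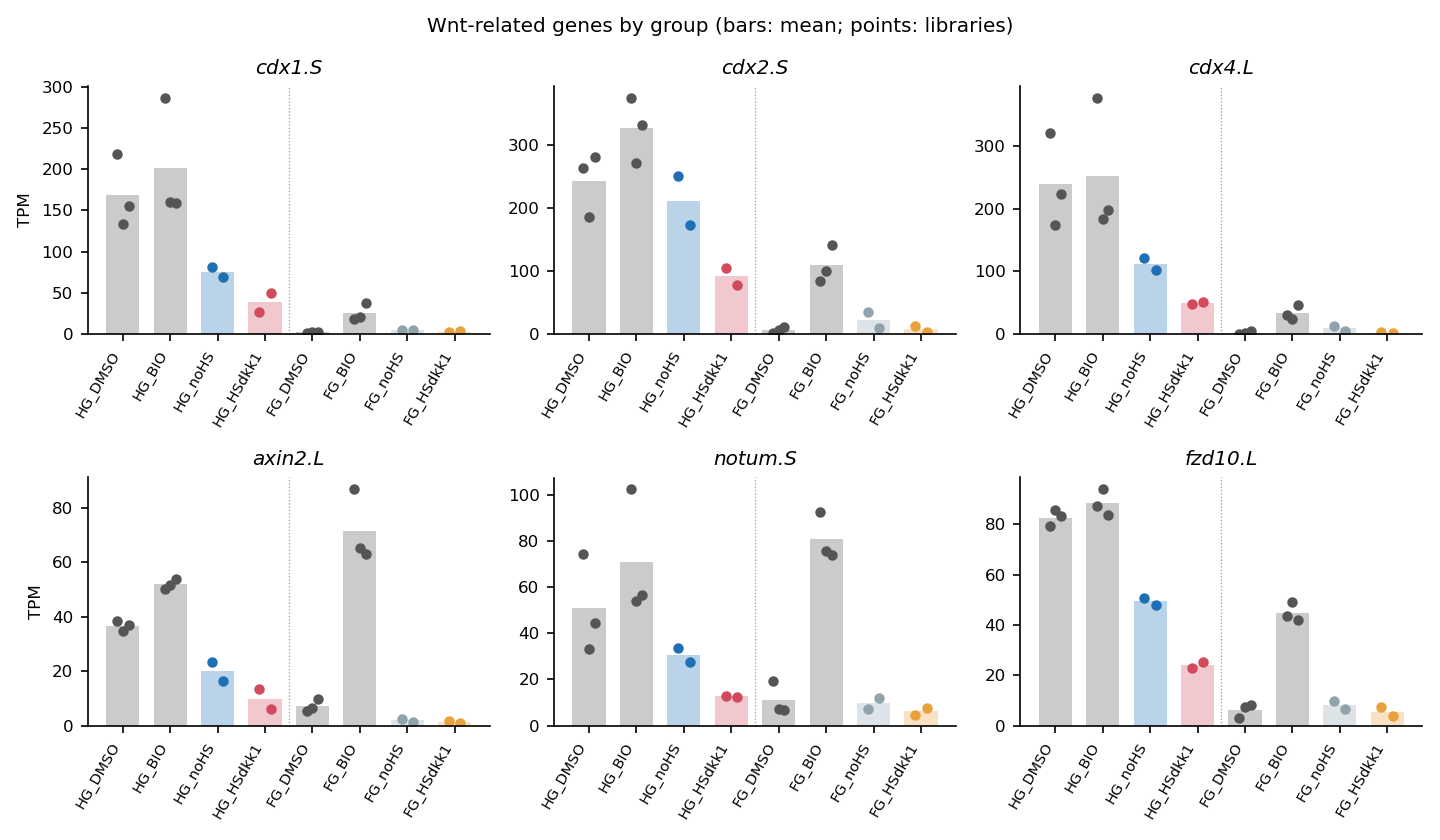
TPM of 6 Wnt-related genes in the vehicle, BIO and heat shock groups of hindgut (left of the dotted line) and foregut (right), with bars for group means and points for libraries. In hindgut, notum.S was at 33.8 and 27.6 TPM without heat and 12.8 and 12.42 TPM with heat, and the inhibitor and heat shock experiments differ in their control levels.

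The caudal homeobox genes, which direct posterior gut and trunk identity, were all lower in both heated hindgut libraries than in either control. Cdx2.L was at 167 and 143 TPM without heat and 75.2 and 83.2 TPM with heat, and cdx2.S was at 251 and 173 TPM without heat and 105 and 77.9 TPM with heat. Cdx4.L was at 122 and 103 TPM without heat and 47.5 and 50.4 TPM with heat, and cdx4.S was at 67.7 and 61.1 TPM without heat and 27.5 and 36.1 TPM with heat. These genes remained well expressed in the heated pieces, and every control library lay above every heated one. Cdx1.S was at 81.5 and 68.7 TPM without heat and 27.0 and 49.9 TPM with heat, and cdx1.L was at 4.78 and 4.90 against 1.36 and 1.99 TPM. The log2 differences of the 6 copies ran from -1.19 (cdx2.S, SE 0.54) to -0.95 (cdx2.L, SE 0.37), with an adjusted p of 1.00 for each by limma.

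Hox genes, which pattern the main body axis in the order of their clusters, were mostly lower, and none of the tested posterior ones was separated higher. Of 41 features in Hox groups 6 to 13, 25 were separated lower and 0 higher, with a median of -0.71. Of 30 features in Hox groups 1 to 5, 12 were separated lower and 2 higher, with a median of -0.33. Hoxa7.L, the posterior Hox gene with the smallest p, was at 41.8 and 51.8 TPM without heat and 16.9 and 20.2 TPM with heat, a log2 difference of -1.29 (SE 0.30, limma adjusted p = 0.352). Hoxa7.S was at 33.2 and 22.8 TPM without heat and 14.7 and 14.2 TPM with heat. Hoxa9.S was at 5.76 and 8.09 against 3.04 and 2.84 TPM, and hoxd11.S was at 3.32 and 4.02 against 1.24 and 1.64 TPM. Further forward in the clusters, hoxc4.L was at 25.1 and 23.3 TPM without heat and 8.74 and 13.4 TPM with heat.

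On the broader list of hindgut and tail bud genes, 34 of 59 features were separated lower and 4 higher, with a median log2 difference of -0.68. The median was -0.89 for heated library 14 and -0.37 for heated library 25, each against the mean of the controls. The list shares the cdx genes, wnt5b and several Hox genes with those above. The 4 higher features include nkx2-3.L and nkx2-3.S, a homeobox gene of the heart and pharynx as well as of the gut. Nkx2-3.S was at 0.47 and 1.51 TPM without heat and 12.6 and 5.84 TPM with heat, a log2 difference of 2.33 (SE 0.44, limma adjusted p = 0.0652). Nkx2-3.L was at 0.71 and 1.07 TPM without heat and 6.91 and 2.52 TPM with heat. The ventral homeobox gene ventx1.1, a target of BMP signalling, was lower for both copies. Ventx1.1.L was at 103 and 126 TPM without heat and 40.5 and 44.9 TPM with heat, and ventx1.1.S was at 156.3 and 149.9 against 77.8 and 45.6 TPM. Pnhd.L, the copy of the secreted-factor gene pinhead, had the smallest p among lower genes, at 38.6 and 28.1 TPM without heat and 11.4 and 13.1 TPM with heat (log2 difference -1.36, SE 0.25, limma adjusted p = 0.0652). Pnhd.S was at 8.56 and 10.3 against 2.58 and 5.27 TPM. Emx2.S, a homeobox gene of the urogenital system and forebrain, was at 17.4 and 18.1 TPM without heat and 8.49 and 7.36 TPM with heat.

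A hindgut piece holds mesoderm beside endoderm, and markers of the presomitic mesoderm and somites were lower too. Of 53 features on that list 23 were separated lower and 1 higher, with a median of -0.52. Msgn1, a basic helix-loop-helix gene of the presomitic mesoderm, was at 63.1 and 70.4 TPM without heat and 21.7 and 38.4 TPM with heat for msgn1.L, and at 6.12 and 16.7 against 1.79 and 4.77 TPM for msgn1.S. Tbx6.L, a T-box gene of the same tissue, was at 76.4 and 88.8 against 30.2 and 49.5 TPM, and tbx6.S was at 22.1 and 27.5 against 13.7 and 13.0 TPM. Myf5.L, a gene of muscle precursors, was at 9.83 and 9.80 TPM without heat and 3.40 and 3.56 TPM with heat. The summed level of the list was 861 and 1453 TPM without heat and 535 and 951 TPM with heat, so that the sums overlapped although many of the genes did not. In bulk tissue, fewer cells of a type and less RNA per cell cannot be told apart. The part that the mesoderm in the pieces has in the lower level of posterior genes was not tested.

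Several lists of anterior and mesodermal tissues held more features separated higher than lower in the heated hindgut. Of 39 blood and endothelial features 20 were separated higher and 0 lower, with a median of 0.51. Of the 39, 16 were under 1 TPM in both unheated libraries and could hardly go lower, and the 20 at 1 TPM or more in both had a median of 0.41. Mpo.S, encoding the myeloperoxidase of myeloid cells, was at 1.71 and 1.62 TPM without heat and 76.6 and 17.4 TPM with heat, a log2 difference of 3.83 (SE 0.82, limma adjusted p = 0.220). This was larger than the difference of spib.L, but its heated libraries lay further apart. In vehicle hindgut explants mpo.S was at 0.83, 1.95 and 25.4 TPM, so a library without heat lay above heated library 25. Spib.L was at 0.35, 0.78 and 3.77 TPM in these explants, below both heated libraries. For spib.S this did not hold. The copy was at 1.34, 3.01 and 4.77 TPM there, and the highest of these lay above heated library 25 at 3.04 TPM. The homeolog mpo.L was at 3.73 TPM in heated library 14 and listed at 0 in heated library 25. Tal1, a regulator of the first blood cells, was at 2.19 and 7.95 TPM without heat and 20.8 and 19.7 TPM with heat for tal1.S, and at 2.25 and 2.98 against 14.2 and 7.98 TPM for tal1.L. Cebpa.L, a regulator of myeloid cells and liver, was at 9.71 and 23.3 TPM without heat and 30.0 and 41.0 TPM with heat. Gata1.L and the heme synthesis gene alas2.S, both of the red cell lineage, were separated higher at low levels. Gata1.L was at 0.25 and 0 against 1.6 and 1.01 TPM and alas2.S at 0.28 and 0.85 against 3.64 and 1.54 TPM. Other genes of that lineage are not given here.

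Of 34 lateral plate and heart features 18 were separated higher and 1 lower, with a median of 0.37. Of the 34, 9 were under 1 TPM in both unheated libraries, and the 20 at 1 TPM or more in both had a median of 0.59. Nkx2-5.S, the cardiac homeobox gene, was at 0.04 and 0.91 TPM without heat and 4.35 and 3.09 TPM with heat, and nkx2-5.L was at 0 and 0.30 against 1.38 and 1.89 TPM. Nkx2-6.L, a related gene of the heart and pharynx, was at 1.13 and 1.73 TPM without heat and 13.95 and 6.0 TPM with heat. The groups of its homeolog nkx2-6.S overlapped, at 0.67 and 0 TPM without heat and 3.3 and 0.45 TPM with heat. Hand2.S, a basic helix-loop-helix gene of lateral plate and heart, was at 5.75 and 3.22 TPM without heat and 29.0 and 9.15 TPM with heat. In the heated hindgut the nkx2-5 copies and nkx2-6.L stayed below both unheated foregut libraries, while hand2.S, at 11.6 and 13.99 TPM there, had 1 heated library above and 1 below that range. Gata4.L, a zinc finger gene of heart and endoderm, was at 1.67 and 1.22 TPM without heat and 10.3 and 5.49 TPM with heat.

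Foregut endoderm genes were higher in part. Of 54 features 17 were separated higher and 5 lower, with a median of 0.21, and the medians against the heated libraries singly were 0.06 and 0.08. Of the 54, 24 were under 1 TPM in both unheated hindgut libraries, where little room is left for a lower value. The 27 at 1 TPM or more in both had a median of only 0.055. Hhex, the homeobox gene of the liver and ventral pancreas territory, was at 0.21 and 0.85 TPM without heat and 10.2 and 5.18 TPM with heat for hhex.L, a log2 difference of 2.47 (SE 0.62, limma adjusted p = 0.476). Hhex.S was at 0.07 and 2.11 against 6.70 and 4.88 TPM. In the unheated foregut hhex.L was at 11.3 and 46.9 TPM, so both heated hindgut libraries lay below both of these. Nr5a2, a nuclear receptor of the developing liver and pancreas, did not follow hhex. Nr5a2.L was at 41.1 and 38.8 TPM without heat and 27.8 and 40.8 TPM with heat, and nr5a2.S was at 27.4 and 32.3 against 18.9 and 29.4 TPM. Although on the foregut list, nr5a2 was higher in hindgut than in foregut among vehicle explants. The means there were 59.4 against 10.2 TPM for nr5a2.L and 39.9 against 6.01 TPM for nr5a2.S. Genes of the endoderm as a whole had a median of 0.02 over 31 features, with 7 separated higher and 3 lower.

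Other named genes with higher values in the heated hindgut include hesx1.S, a homeobox gene of the anterior neural plate and pituitary, at 1.96 and 2.1 TPM without heat and 8.0 and 6.5 TPM with heat. In vehicle hindgut explants hesx1.S was listed at 0 in every library, below these controls. Tmtops.L, an opsin gene, was at 0.59 and 0.77 against 6.17 and 4.33 TPM. Gp1bb.S, whose product in mammals is a subunit of a platelet receptor, was at 1.75 and 0.92 against 7.95 and 5.52 TPM. In unheated separated hindgut endoderm it was at 15.7 and 27.5 TPM, above both heated pieces. Some markers of head tissue outside the gut were also higher. On the list of cement gland and head genes, 6 of 14 features were separated higher and 1 lower, and the summed level was 95.6 and 116 TPM without heat and 326 and 211 TPM with heat. Most of that sum was agr2, a secretory gene of the cement gland, with agr2.S at 42.3 and 37.4 against 183 and 89.1 TPM and agr2.L at 20.4 and 28.5 against 73.2 and 57.7 TPM. Otx2.L, a homeobox gene that defines the head, stayed at 0.38 and 0.20 TPM without heat and 0.25 and 0.17 TPM with heat, and otx2.S overlapped at 2.21 and 2.63 against 6.18 and 1.79 TPM. Pitx1.L, a cement gland regulator, was at 2.86 and 2.49 against 6.90 and 2.70 TPM. Whether anterior or head tissue in the heated pieces has a part in the higher values was not tested.

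The remaining lists differed less in their medians or held features separated in both directions. BMP feedback and target features were separated higher in 18 of 48 cases and lower in 6, with a median of 0.19, the ventx genes being among the lower ones. Retinoic acid features were separated higher in 7 and lower in 3 of 25 cases. Of these, aldh1a2.L, which makes retinoic acid in the trunk mesoderm, was at 52.0 and 67.6 TPM without heat and 13.6 and 42.5 TPM with heat. The FGF list had a median of -0.08 over 40 features, the notochord list -0.09 over 25, the pronephros list -0.04 over 27, the neural plate list 0.03 over 47, the neural crest list -0.13 over 25 and the epidermis list -0.02 over 26. Pax8.L, a kidney and thyroid gene on the pronephros list, was at 11.8 and 12.7 TPM without heat and 2.82 and 5.19 TPM with heat. Snai2.L, a neural crest gene, was at 50.8 and 57.9 against 16.2 and 39.6 TPM.

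Heat shock and chaperone genes showed no common direction at collection. Of 42 features 2 were separated higher and 5 lower, with a median of 0.00. Hspd1.S, for a mitochondrial chaperone, was one of the higher ones, at 39.98 and 24.7 TPM without heat and 46.0 and 44.6 TPM with heat. The constitutive chaperone gene hspa8.L was at 2156 and 1769 TPM without heat and 1760 and 1331 TPM with heat. Hspa8.S was at 3386 and 2832 against 2861 and 2350 TPM, and its groups overlapped. The p53 and cell death list had a median of 0.03 over 43 features, with 4 separated higher and 3 lower, and the cell cycle list had a median of 0.08 over 65, with 10 separated higher and 4 lower.

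**Figure D3:**
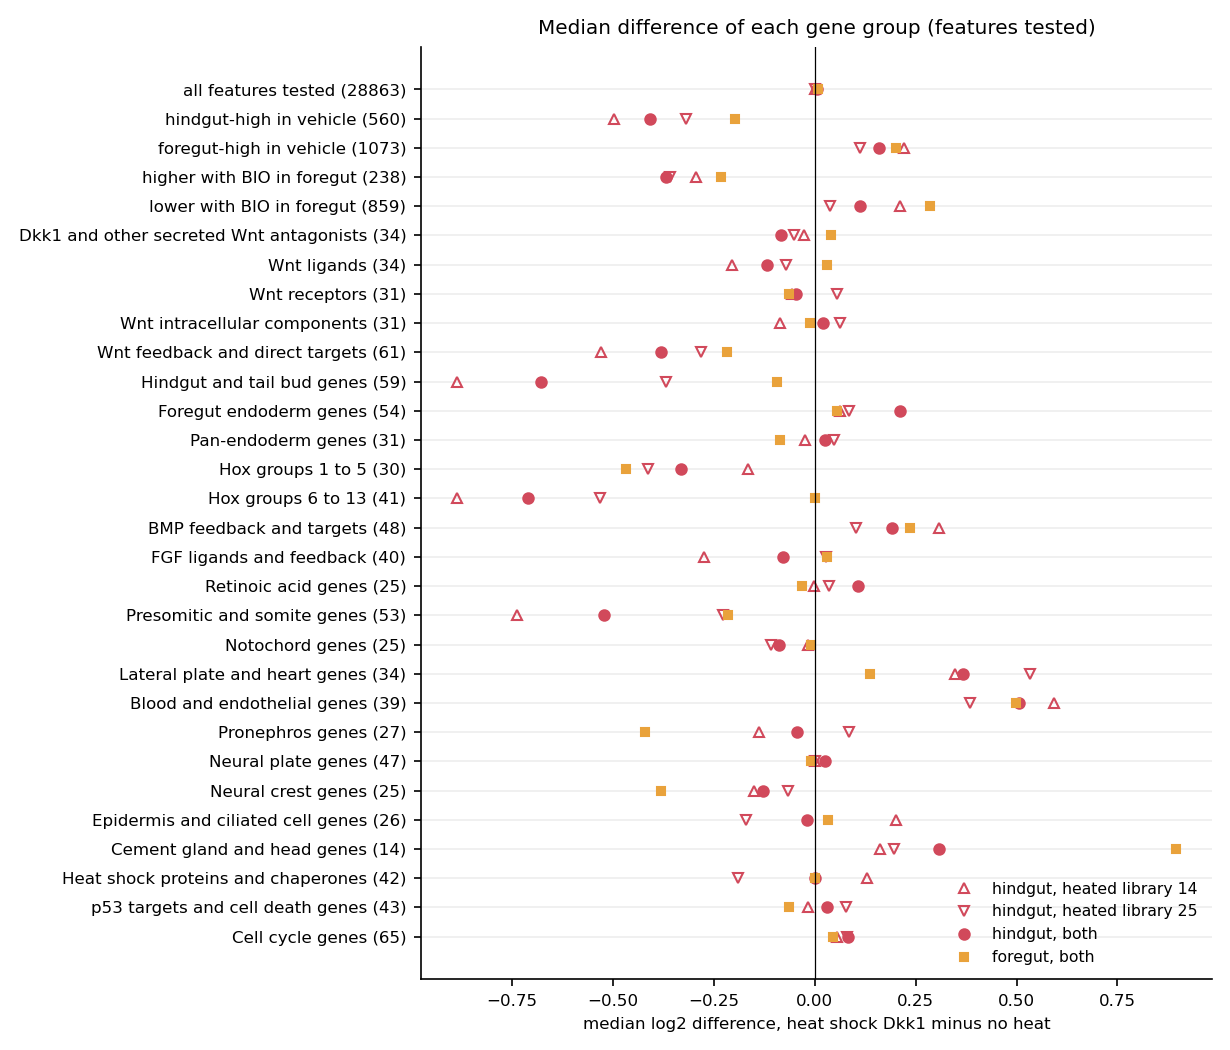
Median log2 difference of heated against unheated libraries for all features, 4 sets taken from other libraries and 25 gene lists, with the number of features tested in brackets. Filled circles give hindgut, open triangles each heated hindgut library against the mean of the controls, and squares foregut. Hox groups 6 to 13 (-0.71) and hindgut and tail bud genes (-0.68) lie lowest in hindgut, and blood and endothelial genes (0.51) lie highest.

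The regional direction of these values was examined with sets taken from libraries outside the heat shock experiment. In vehicle-treated explants, 2155 features (7.47%) differed between hindgut and foregut by limma, and 560 of them were at least 2-fold higher in hindgut and 1073 at least 2-fold higher in foregut. Of the hindgut-high features 263 (47.0%) were separated lower in the heated hindgut and 19 (3.39%) higher, where all features gave 10.1% and 12.3%. Their median log2 difference was -0.41, with -0.50 for heated library 14 and -0.32 for library 25. Their summed level was 37597 and 36263 TPM without heat and 27253 and 27582 TPM with heat, and the groups did not overlap. The foregut-high features showed the reverse order, with 324 (30.2%) separated higher and 64 (5.96%) lower and a median of 0.16. Of these, 417 were under 1 TPM in both unheated hindgut libraries, where little room is left for a lower value. The 538 at 1 TPM or more in both had a median of 0.17.

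**Figure D4:**
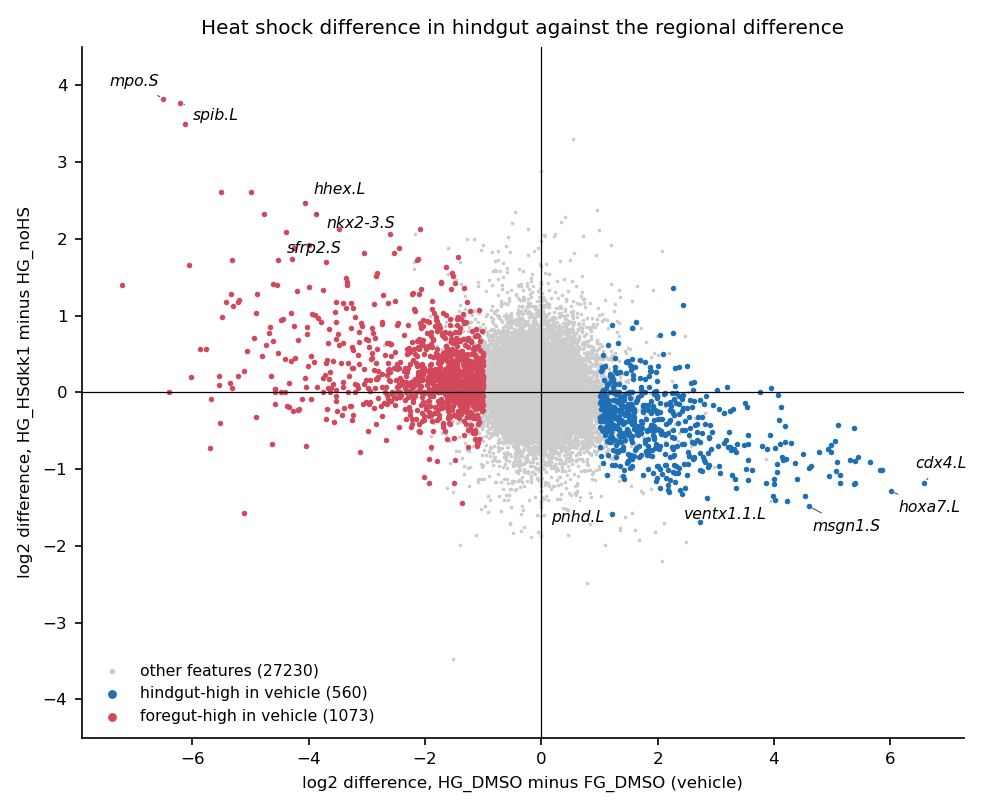
Log2 difference of heated against unheated hindgut (vertical) for each feature against the log2 difference of hindgut against foregut vehicle explants (horizontal), which share no library. The 560 hindgut-high features (blue) lie mostly below 0, with a median of -0.41, and the 1073 foregut-high features (red) mostly above it, with a median of 0.16.

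A second pair of sets came from foregut explants treated with BIO, which activates Wnt signalling by blocking GSK3. In foregut BIO changed 1855 features (6.43%) against the vehicle by limma, of which 238 were at least 2-fold higher and 859 at least 2-fold lower. Of the 238 features that BIO raised in foregut, 104 (43.7%) were separated lower and 13 (5.46%) higher in the heated hindgut, with a median of -0.37. Of the 859 that BIO lowered, 205 (23.9%) were separated higher and 58 (6.75%) lower, with a median of 0.11. The regional and BIO sets share the foregut vehicle libraries and many members. The hindgut-high and BIO-raised sets had 78 features in common, and the foregut-high and BIO-lowered sets 446, so the 2 pairs of sets are not separate evidence. In hindgut itself BIO changed 8 features (0.0277%). Whether the members of the BIO sets respond to Wnt signalling itself was not tested.

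Foregut pieces with the same heat treatment gave 7 called features (0.0243%). The difference between the hindgut and the foregut response was tested for every feature, and 4 features (0.0139%) passed, all of them gene models without a symbol, with 301 (1.04%) at an unadjusted p under 0.05. No named gene with a symbol passed this test, so none is shown to respond differently in the 2 regions. Spib.L was at 79.6 and 85.1 TPM in unheated foregut and 198 and 172 TPM in heated foregut, a log2 difference of 1.15 (SE 0.52). The hindgut difference exceeded this by 2.62 (SE 0.73, limma adjusted p = 1.00). LOC100489362.L was at 0.28 and 0.52 TPM in unheated and 2.77 and 3.73 TPM in heated foregut, close to its hindgut values. Cdx2.S was at 35.4 and 10.2 TPM in unheated and 12.3 and 3.14 TPM in heated foregut, a log2 difference of -1.44 (SE 0.54) beside -1.19 in hindgut. Hhex.L was at 11.3 and 46.9 TPM in unheated and 30.8 and 39.3 TPM in heated foregut, where the groups overlapped.

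By list, the foregut medians had the sign of the hindgut medians for Wnt feedback and direct targets (-0.22), Hox groups 1 to 5 (-0.47), presomitic genes (-0.22), blood genes (0.50) and heart genes (0.14). Hindgut and tail bud genes had a foregut median of only -0.09, with 11 separated lower and 6 higher. Other lists had the opposite sign in foregut, all with small medians. Among them were secreted antagonists (0.04), Wnt ligands (0.03), FGF genes (0.03), retinoic acid genes (-0.03) and genes of the endoderm as a whole (-0.09). For Hox groups 6 to 13, which are nearly absent from foregut, the foregut median was 0.00. Still, 11 of these 41 features were separated lower and 2 higher in heated foregut, beside 2536 lower and 3406 higher of all 28863. Their summed foregut level was 32.1 and 42.1 TPM without heat and 12.7 and 26.6 TPM with heat. Cement gland and head genes had a foregut median of 0.90 and a summed level of 1518 and 1171 TPM without heat against 4788 and 1741 TPM with heat. The regional and BIO sets also had foregut medians of the same sign as in hindgut. Foregut-high features had a foregut median of 0.20, with 271 separated higher and 54 lower. Features lowered by BIO had a foregut median of 0.28, with 261 higher and 28 lower. The foregut median was -0.20 for hindgut-high features (172 lower, 25 higher) and -0.23 for BIO-raised features (79 lower, 7 higher). These list and set medians were not tested against those of hindgut.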

How the data were processed

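Per the labels' protocols, total RNA was extracted with the Nucleo-spin RNA kit from 2 or 3 independent biological replicates, and libraries were made with the TruSeq Stranded mRNA kit. The authors deposited 1 table of TPM values per gene, and per the submitters' processing notes FastQC, Trimmomatic and RSEM were used. Versions and genome build are not given in the sources used here. TPM keeps no counts, so depth and counting error are unknown.

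Of 40271 features, the 28863 (71.7%) with at least 1 TPM in 2 or more of the 37 libraries were tested as log2(TPM + 1), which understates changes of low genes. One model with 15 group means was fitted with limma 3.58.1 (trend) in R 4.3.3, with 22 residual and 4.22 prior degrees of freedom and Benjamini-Hochberg adjustment over all features at 0.05. SE is that of the log2 difference. "Separated" means that both heated libraries lie on the same side of both controls. The 33 columns of other groups were matched to samples by name, and the 4 hindgut heat shock columns only to their group.

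Genes were named by a rule: 8 candidates with both copies; in each direction the 8 symbols with the smallest p among those at least 2-fold changed, at 5 TPM or more and separated, with the other copy; up to 4 members per list by p; and called interactions. Otx2, pitx1.L, tbx6, nkx2-5.L, tal1.L, hand2.L, sp5l.L, alas2.S and gata1.L, and the gene models in the closing section, were chosen after their values were seen. The members and the 25 lists, which overlap, were chosen with earlier results of these data known. The BIO set was added after seeing the data. The alternatives were other pseudocounts, filters and scalings, homeologs summed, smaller fits and libraries left out, where a lone library is assumed to vary like other groups. The fit was tested on simulated data. Plots used matplotlib 3.10.9 (Python 3.11.15).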

Additional observations from a re-analysis of the deposited data

Results flagged for a closer look

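The difference between the hindgut and foregut heat shock responses passed the limma test (Benjamini-Hochberg adjusted p under 0.05 over all features) for 4 gene models without a symbol. Xelaev18007944m.g was at 49.4 and 44.1 TPM in unheated and 22.2 and 18.5 TPM in heated hindgut, but listed at 0 in both unheated foregut libraries and at 20.9 and 13.2 TPM in the heated ones, a difference of responses of -5.31 on the log2 scale. The other three are low in most of the 8 libraries, with differences of 1.47 (Xelaev18006344m.g), 1.69 (Xelaev18015913m.g) and -1.70 (Xelaev18018961m.g). Each of these 4 has at least 1 group listed at 0 in both libraries. Of them, Xelaev18006344m.g and Xelaev18018961m.g had a hindgut log2 difference of 0 in all 15 alternative settings that gave a value. Their difference of responses thus came from the foregut libraries alone.

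For 4 further named genes every heated hindgut library lay on one side of its controls and every heated foregut library on the other, with a limma adjusted p of 1.00 for the difference. Gata4.L was at 1.67 and 1.22 against 10.3 and 5.49 TPM in hindgut and at 19.1 and 23.02 against 17.6 and 16.9 TPM in foregut (difference 2.08). Meis3.S was at 24.6 and 14.7 against 43.1 and 28.1 TPM in hindgut and at 79.3 and 70.4 against 65.0 and 63.3 TPM in foregut (difference 1.06). The other two were wnt3.L (difference 0.481) and dmd.1.S (difference -0.566), which stayed under 3 TPM.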

How the results depend on the processing

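The count of 2 called genes in heated hindgut was 5 at a pseudocount of 0.1 TPM, 25 with no filter on low values, 1 with a filter at 5 TPM, 9 after median-of-ratios scaling, 0 in a fit to the 2 groups alone or to the 8 heat shock libraries, and 0 to 15 with 1 library left out. Alternatives chosen after seeing the data gave 9 without libraries 23 and 25, 1 without 12 and 14, and 5 with the 3 high features removed. The replicate numbers of the titles could not serve as a block, because the hindgut columns carry other numbers. A replicate block by their first digit (12 with 14, 23 with 25; residual correlation 0.488, 2 pairs), also chosen later, gave 5 calls. Whether these digits pair the libraries is not stated in the labels.

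In the other comparisons, the foregut heat shock count of 7 was 31 with no filter, 1 at the 5 TPM filter, 0 in both smaller fits and 3 to 20 with 1 library left out. The count of 4 for the difference of regions was 1 at a pseudocount of 5, 27 with no filter, 1 at the 5 TPM filter, 0 with only those groups, 1 to 8 with 1 library left out, 7 without libraries 23 and 25 and 1 without 12 and 14. Hindgut BIO gave 24 at a pseudocount of 5, 14 with no filter, 25 after rescaling, 0 in its groups alone and 1 to 25 with 1 library left out. With its groups alone, HG_DMSO vs FG_DMSO gave 841 calls and FG_BIO vs FG_DMSO gave 1114, the latter 1041 to 1855 with 1 library left out.

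The medians of the 4 sets kept their sign or reached 0. That of hindgut-high features was -0.27 at a pseudocount of 5. That of foregut-high features was 0.31 and 0.0569 at pseudocounts of 0.1 and 5, 0.28 without libraries 23 and 25 and 0.0506 without 12 and 14. That of BIO-raised features was -0.56 and -0.16 at those pseudocounts, -0.43 at the 5 TPM filter and -0.42 to -0.30 with 1 library left out. Over 16 settings the median ran from -0.89 to -0.34 for hindgut and tail bud genes, from -0.89 to -0.48 for Hox groups 6 to 13, from -0.64 to -0.19 for Wnt targets and from 0.20 to 1.18 for blood genes.

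Signs changed for 7 named genes. With 1 library left out, dkk1.L ran from -0.75 to 0.26, nr5a2.L from -0.51 to 0.0299, mpo.L from -0.0907 to 2.15, otx2.S from -0.29 to 1.07, dlx2.L from -0.00094 to 1.12 and otx2.L from -0.19 to 0.0112. Without libraries 23 and 25 dkk1.L was at 0.34 and dkk1.S at 0.0564. Without 12 and 14 nr5a2.L was at 0.0715, mpo.L at -0.11 and otx2.S at -0.38. With homeologs summed otx2 was at 0.34. The causes were not tested, and depth is unknown.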

Other observations

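Libraries of separated germ layers, with 2 per layer and region and no heat treatment, show in which layer the named genes are found. Spib.L was at 128 and 116 TPM in foregut mesoderm and 61.7 and 25.4 TPM in foregut endoderm, and at or below 2.96 TPM in both hindgut layers. Mpo.S was likewise higher in foregut mesoderm, at 386 and 301 TPM, than in foregut endoderm, at 132 and 69.6 TPM. Hhex.L was at 10.7 and 66.3 TPM in foregut endoderm and 6.62 and 4.82 TPM in foregut mesoderm, with its endoderm libraries far apart. In hindgut endoderm hhex.L was at 4.85 and 0.63 TPM and hhex.S at 10.6 and 0.82 TPM. The higher hhex.S value lay above both heated hindgut pieces, at 6.70 and 4.88 TPM. Both copies were at or below 0.41 TPM in hindgut mesoderm. Hesx1.S was detected in foregut mesoderm, at 3.41 and 2.46 TPM, and listed at 0 in the other 6 germ layer libraries.

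Genes with lower values in the heated hindgut came from both layers. Ventx1.1.L was at 239 and 232 TPM in hindgut endoderm against 40.9 and 34.2 TPM in hindgut mesoderm, and axin2.L was at 50.1 and 78.8 against 8.08 and 9.66 TPM. Msgn1.S was the other way round, at 26.0 and 43.9 TPM in hindgut mesoderm and 1.76 and 0 TPM in hindgut endoderm, as was emx2.S, at 29.3 and 41.9 TPM in mesoderm and listed at 0 in endoderm. Hoxa7.L was alike in both, at 61.0 and 47.7 TPM in endoderm and 69.9 and 74.3 TPM in mesoderm. No heated library of a separated layer is among these, so the layer in which the heated hindgut differed is not given by these values.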
